A study of Cricetulus griseus with 27 samples.

Results

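Microparticles (MPs) are vesicles that bud directly from the plasma membrane, and they carry proteins and RNA of the cell that sheds them. The small RNA of MPs from osmotically stressed cultures of CHO-K1, a Chinese hamster ovary line used to make recombinant proteins, was set against that of MPs from ammonia-stressed cultures. These 6 libraries, 3 from each culture, are 6 of the 27 libraries in the series and were chosen by their labels alone. The osmotic cultures started with 60 mM NaCl, which added 120 mOsm/L, and the ammonia cultures with 9 mM NH4Cl. Both salts were given in PBS. Both kinds of culture had a volume of 15 mL, 6 mM glutamine, a temperature of 37 °C, shaking at 200 RPM and 5% CO2 in the gas phase, and were harvested on day 3. All 6 were TruSeq Small RNA libraries and belonged to 1 pool of 18 stressed libraries, so kit and pool do not separate the groups. The labels call the replicates biological, and the way MPs were isolated was not given in the sources used here.

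MicroRNAs (miRNAs) are short RNAs that repress messenger RNAs through base pairing with their seed. A precursor hairpin can give a mature RNA from each arm, named -5p or -3p, and hairpins that lie next to each other are often copied as a single transcript. Vesicles take up a selection of the miRNAs of their cell, and cell culture engineers follow miRNAs because several of them change growth, survival and productivity of CHO cells. Osmotic stress and ammonia build-up both occur in production cultures and both slow growth.

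The count table lists 4815 mature miRNA entries, each named by species (cgr for Chinese hamster, mmu for mouse, rno for rat and hsa for human). At least 1 count in the 6 libraries was found for 345 entries, of which 156 carry a hamster name, 100 a mouse name, 24 a rat name and 65 a human name. An entry under a mouse, rat or human name holds reads from hamster cells that were grouped under that sequence. The same or a nearly identical miRNA can therefore be split between entries, and single entries of such a set are uncertain. The osmotic MP libraries held 378397, 1103990 and 973076 counts, and the ammonia MP libraries 2967003, 1962086 and 2569616. All values below are raw counts or CPM, a count over the total of its library, scaled to 1000000. They are relative, and in a bulk vesicle sample more vesicles and more RNA per vesicle cannot be told apart.

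In both kinds of MP the let-7 family, which restrains growth-promoting genes such as RAS and MYC in mammals, made up most of the counts. Beneath this shared top layer, fewer entries reached 50 CPM in the osmotic MP libraries. At 50 CPM or more stood 65, 70 and 62 entries in the osmotic MP libraries, against 123, 107 and 119 in the ammonia MP libraries. The group averages were 65.7 ± 4.04 and 116 ± 8.33 (SD, n = 3 each), and the groups did not overlap. The two-sided exact permutation test gave p = 0.1, the smallest that 3 against 3 libraries allow. In the cells of the same cultures, this number was 215, 228 and 205 in osmotic cells and 191, 206 and 208 in ammonia cells (exact permutation p = 0.3). The 2 kinds of cell thus overlapped, with the higher average in osmotic cells.

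Fewer entries in osmotic MP libraries were also found at equal depth, with a gap of -29.3 entries against -63.3 as deposited. Thinning equalises counts alone, and the amount of RNA that entered each library was not tested. Thinned to the 378397 counts of the smallest library, the osmotic MP libraries held 142, 140 and 131 entries with a count, against 174, 151 and 176 in ammonia MPs. The averages were 137.7 ± 5.86 and 167 ± 13.9 (SD, n = 3 each), again with the smallest p of the exact permutation test, 0.1. As deposited the numbers were 142, 180 and 177 in osmotic MPs and 237, 196 and 256 in ammonia MPs, which includes the difference in depth. A level of 50 CPM corresponds to 18.9 counts in the smallest library and to 148 in the largest, so it lay above the counting floor in each of the 6. The 5 most abundant entries took 60.7%, 58.0% and 69.5% of osmotic MP counts, against 62.3%, 62.6% and 63.8% of ammonia MP counts (exact permutation p = 1). The concentration of counts in the top entries did not separate the groups.

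**Figure D1:**
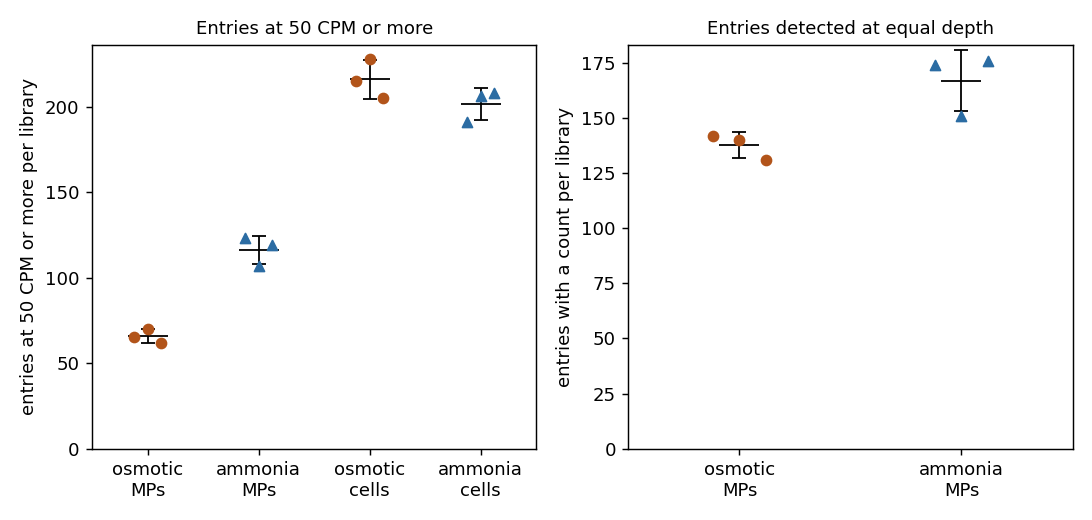
Number of miRNA entries per library. Left, entries at 50 CPM or more in osmotic and ammonia microparticles (MPs) and in osmotic and ammonia cells; right, entries with at least 1 count after each MP library was thinned to 378397 counts. Points are libraries, bars the mean ± SD (n = 3). The osmotic MP libraries (62 to 70) lie below the ammonia MP libraries (107 to 123) on the left, while the cell libraries of both cultures overlap.

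The MP libraries varied far more than the cell libraries, except among the most abundant entries of ammonia MPs. Among entries averaging 50 CPM or more in a group, the median coefficient of variation over the 3 libraries was 116% in osmotic MPs (103 entries) and 93.4% in ammonia MPs (163 entries). In the cells it was 30.4% in osmotic cells (216 entries) and 29.1% in ammonia cells (203 entries). A library at 0 occurred for 33 of the 103 entries in osmotic MPs and for 42 of the 163 in ammonia MPs, but for only 2 entries in either kind of cell. Above 10000 CPM the median coefficient of variation was 33.8% in osmotic MPs and 17.5% in ammonia MPs. At that level it was 16.5% in osmotic cells and 12.3% in ammonia cells, so ammonia MPs came close to osmotic cells. Below the most abundant entries, then, a miRNA was often plentiful in some MP libraries of a group and almost missing from the others. Of the 180 entries averaging at least 50 CPM in either group, 32 reached that level in all 6 libraries. A further 16 reached it in a single osmotic MP library and no other, and 46 in a single ammonia MP library and no other.

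No entry passed the test of osmotic against ammonia MPs. In edgeR's quasi-likelihood test, adjusted by Benjamini-Hochberg over the 106 entries with enough counts, 0 had an adjusted p under 0.05 (0% called), and the smallest adjusted p was 0.0652. At an unadjusted p under 0.05 stood 25 entries (23.6% of those tested), 5 of them higher in osmotic MPs (4.72%) and 20 lower (18.9%). The CPM of the 2 groups did not overlap for 31 entries (29.2%), 5 of them higher (4.72%) and 26 lower in osmotic MPs (24.5%). With RLE scaling, which moved the median log2 fold change of all entries by +0.53, 12 higher and 19 lower entries had an unadjusted p under 0.05, and 17 passed the adjusted threshold (16%), 6 higher and 11 lower. DESeq2 called 30 of the same 106 entries (28.3%), 11 higher and 19 lower. A fit of all 18 stressed libraries, which takes its spread from the cell and exosome libraries as well, called 64 of 332 entries (19.3%). A robust estimate of the spread, added after the data were seen, called 11 entries (10.4%), all lower. The number of calls therefore depends on how spread and scale are estimated, and the entries below are described by their values first. The 9 entries called in each of these 4 settings were all lower in osmotic MPs: hsa-miR-139-5p, mmu-miR-296-3p, mmu-miR-6412, cgr-miR-7a, cgr-miR-28-3p, cgr-miR-652-3p, cgr-miR-103-3p, cgr-miR-199a-3p and cgr-miR-151-3p.

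**Figure D2:**
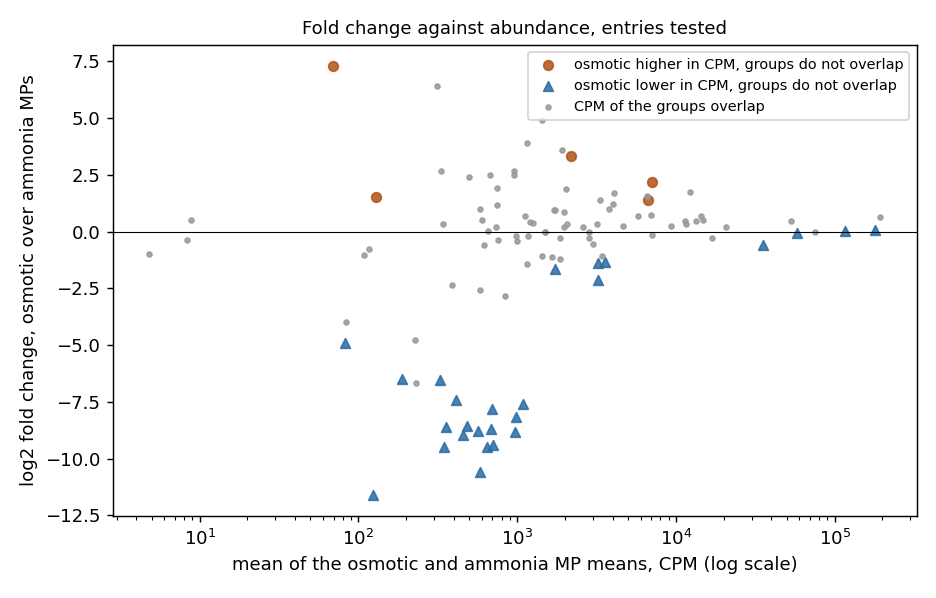
Log2 fold change of osmotic over ammonia MPs (vertical, edgeR with TMM scaling) against the mean of the group means in CPM (horizontal, log scale) for the 106 entries tested. Circles and triangles are entries whose CPM values do not overlap between the groups, 5 higher and 26 lower in osmotic MPs. Most of the triangles lie in the middle of the abundance range with log2 fold changes below -5, while the most abundant entries stay near 0.

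The clearest pattern was a set of entries that every ammonia MP library held and that were near 0 in the osmotic MP libraries. For some of them another entry of the same miRNA was present in osmotic MPs, as given below. At least 50 CPM in all 3 ammonia MP libraries and in no osmotic MP library was found for 13 entries, and the reverse for 0. All 13 were present in the cells of both cultures, at 160.9 CPM or more in each of the 6 cell libraries. At thresholds of 20, 100 and 200 CPM, chosen after the data were seen, the number was 15, 13 and 13. In the other direction it was 0, 1 and 0. In the cells, the same rule gave 0 entries in ammonia cells alone and 1, cgr-miR-361, in osmotic cells alone. With TMM scaling in edgeR none of the 13 passed the adjusted threshold in MPs. With RLE scaling 10 of them passed, with the robust estimate 9, and with DESeq2 and in the fit of 18 libraries all 13, each as lower. Over all entries tested, the shares called were 16% with RLE scaling, 10.4% with the robust estimate, 28.3% with DESeq2 and 19.3% in the fit of 18 libraries. The same MP libraries chose the 13 by their low osmotic values, so these passes and their direction are no separate support.

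The miR-29 family, which represses collagens and other matrix genes, gave the most abundant of the 13. The entry mmu-miR-29a-3p had 8, 5 and 5 counts in the osmotic MP libraries (21.1, 4.53 and 5.14 CPM), against 6666, 4668 and 4809 counts in ammonia MPs (2247, 2379 and 1871 CPM). It was detected in 3 of 3 libraries of each group, and the lowest ammonia library lay far above the highest osmotic one. The log2 fold change was -7.59 ± 1.90 (SE; edgeR adjusted p = 0.0652). A second entry of the same miRNA, cgr-miR-29a-3p, had 600, 1.81 and 4.11 CPM in osmotic MPs and 1558, 122 and 2764 CPM in ammonia MPs, so osmotic replicate 1 overlapped with the ammonia libraries. Summed over both names, miR-29a-3p stood at 621, 6.34 and 9.25 CPM in osmotic MPs and at 3805, 2501 and 4636 CPM in ammonia MPs. These sums did not overlap, with a log2 fold change of -4.08 ± 1.94 (SE; edgeR adjusted p = 0.261 over the summed names). In the cells mmu-miR-29a-3p was not low: it had 5172, 7218 and 3480 CPM in osmotic cells and 3080, 3541 and 2696 CPM in ammonia cells.

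The next entry, cgr-miR-27a-3p, shares a cluster with miR-23a and miR-24, and the 3 genes neighbour each other in the RefSeq annotation of the hamster. It had 5, 3 and 3 counts in osmotic MPs (13.2, 2.72 and 3.08 CPM), against 8036, 1354 and 6362 counts in ammonia MPs (2708, 690 and 2476 CPM), with a log2 fold change of -8.17 ± 2.06 (SE; edgeR adjusted p = 0.0652). Its neighbour cgr-miR-23a-3p was plentiful in every library: 28449, 9159 and 5958 CPM in osmotic MPs and 18994, 20816 and 18741 CPM in ammonia MPs (log2 fold change -0.28 ± 0.54, SE). The third product, mmu-miR-24-3p, had 5980, 12165 and 6.17 CPM in osmotic MPs and 3598, 1944 and 924 CPM in ammonia MPs, and its hamster-named entry cgr-miR-24-3p had 169, 264 and 0 CPM in osmotic MPs and 91.7, 1561 and 1411 CPM in ammonia MPs. Of these 4 entries, miR-27a-3p alone was low in all 3 osmotic MP libraries. In the cells cgr-miR-27a-3p had 2243, 3576 and 2040 CPM under osmotic stress and 1080, 1388 and 979 CPM under ammonia, so the osmotic cells were the higher ones.

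In mammals, miR-222 and its neighbour miR-221 repress the cell cycle inhibitor p27. The entry mmu-miR-222-3p had 6, 1 and 1 counts in osmotic MPs (15.9, 0.906 and 1.03 CPM) and 3012, 4071 and 2681 counts in ammonia MPs (1015, 2075 and 1043 CPM). All 3 names of miR-222-3p were low in osmotic MPs: cgr-miR-222-3p had 1, 0 and 2 counts there, against 100, 3484 and 2349 in ammonia MPs. The third name, rno-miR-222-3p, had 0 counts in all 3 osmotic MP libraries and 1659, 1232 and 11 counts in ammonia MPs. Summed, miR-222-3p reached 18.5, 0.91 and 3.08 CPM in osmotic MPs and 1608, 4478 and 1962 CPM in ammonia MPs, a log2 fold change of -8.37 ± 2.05 (SE; edgeR adjusted p = 0.0623 over the 88 summed names). By contrast cgr-miR-221-3p was low in osmotic replicate 1 alone, with 29.1, 2057 and 3555 CPM in osmotic MPs and 8269, 4230 and 2412 CPM in ammonia MPs. The neighbours thus stood at different levels in osmotic replicates 2 and 3.

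Several of the 13 come from the introns of protein-coding genes in human and mouse. The entry hsa-miR-139-5p, whose hairpin lies in the phosphodiesterase gene PDE2A, had 2, 3 and 1 counts in osmotic MPs and 5449, 3463 and 1367 in ammonia MPs (1837, 1765 and 532 CPM), a log2 fold change of -8.68 ± 2.12 (SE; edgeR adjusted p = 0.0652). Its hamster-named entry cgr-miR-139-5p had 1, 0 and 0 counts in osmotic MPs and 6980, 2243 and 24 in ammonia MPs, where replicate 3 stood apart. Both names were thus near 0 in every osmotic MP library. The entry cgr-miR-151-3p, from an intron of the focal adhesion kinase gene PTK2, had 2, 1 and 1 counts in osmotic MPs and 4818, 1339 and 2767 in ammonia MPs (1624, 682 and 1077 CPM). Its log2 fold change was -8.81 ± 2.16 (SE; edgeR adjusted p = 0.0652). The other arm of the same hairpin, miR-151-5p, was not missing as a group: it had 3642, 3511 and 9.25 CPM in osmotic MPs and 3074, 5149 and 1634 CPM in ammonia MPs. The entry cgr-miR-28-3p, from an intron of LPP, had 1, 0 and 2 counts in osmotic MPs, so it was detected in 2 of 3 libraries, and 4185, 3512 and 1731 counts in ammonia MPs (1411, 1790 and 674 CPM). Its log2 fold change was -9.51 ± 2.40 (SE; edgeR adjusted p = 0.0652).

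Among miRNAs known to restrain growth, cgr-miR-7a, studied as an engineering target because it slows growth of CHO cells, had 0, 2 and 0 counts in osmotic MPs, so 1 of 3 libraries detected it. The ammonia MP libraries held 1231, 2824 and 601 counts (415, 1439 and 234 CPM), and the log2 fold change was -9.51 ± 2.54 (SE; edgeR adjusted p = 0.0652). In the cells it was plentiful in both cultures, with 1472, 2267 and 743 CPM in osmotic cells and 603, 836 and 702 CPM in ammonia cells. The entry cgr-miR-199a-3p, which represses MTOR in human cells, had 1, 2 and 2 counts in osmotic MPs and 5958, 423 and 1755 in ammonia MPs (2008, 216 and 683 CPM), with a log2 fold change of -8.58 ± 2.19 (SE; edgeR adjusted p = 0.0652). The entry mmu-miR-6412 had 2, 1 and 0 counts in osmotic MPs and 6426, 2560 and 1879 in ammonia MPs (2166, 1305 and 731 CPM), with a log2 fold change of -9.42 ± 2.48 (SE; edgeR adjusted p = 0.0652). In the cells it had 203, 194 and 370 CPM under osmotic stress and 269, 161 and 412 CPM under ammonia, below each of its ammonia MP libraries.

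The other 4 entries of the set showed the same split. The entry cgr-miR-103-3p, of a family tied to insulin sensitivity in mice, had 1, 4 and 5 counts in osmotic MPs and 1501, 907 and 3810 in ammonia MPs. The entry cgr-miR-652-3p had 0, 1 and 3 counts in osmotic MPs and 4224, 423 and 1261 in ammonia MPs. For cgr-miR-99a-5p, of the miR-10 and miR-100 family, the counts were 6, 3 and 1 in osmotic MPs and 2012, 919 and 2026 in ammonia MPs. Its mouse-named entry mmu-miR-99a-5p reached 1488 CPM in osmotic replicate 1 and 0 and 1.03 CPM in osmotic replicates 2 and 3, against 1603, 39.8 and 562 CPM in ammonia MPs, so that the sum over both names overlapped between the groups (log2 fold change -1.45 ± 2.30, SE). The last entry, rno-miR-423-5p, had 3, 4 and 0 counts in osmotic MPs and 1217, 2335 and 10914 in ammonia MPs. Its hamster-named entry cgr-miR-423-5p was among the most abundant in both, with 14099, 28512 and 6844 CPM in osmotic MPs and 11547, 16082 and 9669 CPM in ammonia MPs. The summed miR-423-5p therefore overlapped between the groups (log2 fold change 0.44 ± 0.53, SE), and the low rat-named entry does not describe the miRNA as a whole.

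**Figure D3:**
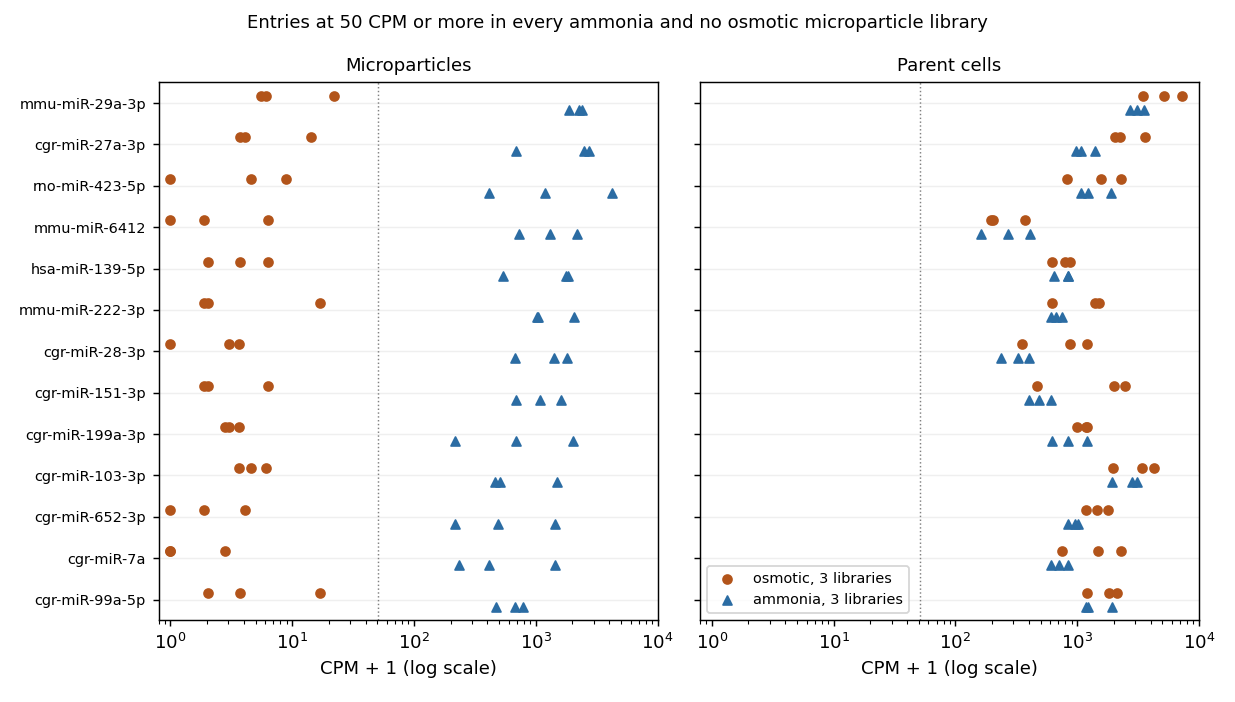
CPM + 1 (log scale) of the 13 entries at 50 CPM or more (dotted line) in every ammonia MP library and no osmotic MP library. Left, microparticles; right, cells of the same cultures; circles are the 3 osmotic libraries and triangles the 3 ammonia libraries. In MPs the osmotic points lie at or below 21.1 CPM and the ammonia points at or above 216 CPM, while in cells all points lie above 100 CPM.

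An interaction test asked whether the culture difference in MPs differed from that in the cells. The difference of osmotic minus ammonia in MPs, minus the same difference in cells, passed for 16 of 351 entries (4.56%; edgeR, 12 libraries), each of them more negative in MPs. They were the 13 entries above and cgr-miR-139-5p, cgr-miR-222-3p and rno-miR-222-3p. For mmu-miR-29a-3p the difference between the 2 log2 fold changes was -7.94 ± 1.27 (SE; edgeR adjusted p = 0.0110), for cgr-miR-27a-3p it was -9.02 ± 1.60 (adjusted p = 0.0139) and for cgr-miR-151-3p it was -10.16 ± 1.87 (adjusted p = 0.0139). The same MP libraries chose the 13 entries, so their number here is no separate support. In the cells, 0 of 354 entries passed between osmotic and ammonia culture in edgeR (0% called). The 16 calls rest on the cell libraries as well. Leaving out any 1 of the 3 ammonia cell libraries left 0 entries past the threshold (smallest adjusted p 0.105 to 0.125). Without osmotic cell replicate 1 or 2 there were 8, and without ammonia MP replicate 2 there were 34. Each of the other libraries left out gave 11 to 22 entries. With the replicate number as a block 0 entries passed (smallest adjusted p 0.0699). DESeq2 called 53, 8 of them in the other direction, RLE scaling 18, 4 of them in the other direction, and no filter 27, 5 of them in the other direction.

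Some further miRNAs had no count at all in the 3 osmotic MP libraries while every ammonia MP library held one. Besides rno-miR-222-3p these were cgr-miR-324-3p with 1299, 1 and 656 counts, cgr-miR-15b-3p with 1, 1661 and 1080 counts and mmu-miR-296-3p with 236, 58 and 1617 counts in the ammonia MP libraries. A single ammonia library held almost nothing for the first 3 of these 4 entries. Against a floor of 3 counts over the summed osmotic libraries (1.22 CPM), pooled levels were at least 317-fold lower in osmotic MPs for rno-miR-222-3p, 213-fold for cgr-miR-324-3p, 299-fold for cgr-miR-15b-3p and 209-fold for mmu-miR-296-3p. Without ammonia MPs replicate 3, which holds most counts of mmu-miR-296-3p, its bound was 48.8-fold. For cgr-miR-15b-3p it was 160-fold without replicate 2, and for cgr-miR-324-3p 119-fold without replicate 1. Such bounds cover counting error only. In the cells cgr-miR-15b-3p had 175, 242 and 330 CPM under osmotic stress and 366, 207 and 360 CPM under ammonia, so it was detected in every cell library.

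A smaller group of miRNAs was higher in osmotic MPs, led by 3 entries that were abundant in every library. In human and mouse, miR-99b, let-7e and miR-125a lie side by side in a cluster. They were grouped here after their values had been seen. The entry mmu-miR-99b-5p had 4553, 5250 and 1920 CPM in osmotic MPs and 506, 397 and 456 CPM in ammonia MPs, averages of 3908 ± 1757 and 453 ± 54.7 CPM (SD, n = 3 each). Its log2 fold change was 3.33 ± 1.18 (SE; edgeR adjusted p = 0.107). The entry cgr-miR-125a-5p had 12336, 14304 and 7164 CPM in osmotic MPs and 1523, 2560 and 4761 CPM in ammonia MPs, with a log2 fold change of 2.18 ± 0.73 (SE; edgeR adjusted p = 0.0942). For mmu-let-7e-5p the values were 8525, 8458 and 10642 CPM in osmotic MPs and 4580, 4817 and 3102 CPM in ammonia MPs, a log2 fold change of 1.39 ± 0.65 (SE; edgeR adjusted p = 0.248). All 3 were detected in all 6 libraries and the groups did not overlap for any of them.

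The cells showed the same order for these 3. In cells mmu-miR-99b-5p had 1579, 1578 and 1969 CPM under osmotic stress and 694, 772 and 894 CPM under ammonia. Likewise cgr-miR-125a-5p had 7930, 6961 and 5750 CPM in osmotic cells and 2793, 3343 and 3318 CPM in ammonia cells. The levels of mmu-let-7e-5p were 8659, 7278 and 8038 CPM in osmotic cells and 5023, 5123 and 5093 CPM in ammonia cells. The osmotic and ammonia cell libraries did not overlap for any of the 3 either. In a fit of the 6 cell libraries the log2 fold changes were 0.71 ± 0.26 for mmu-miR-99b-5p, 0.69 ± 0.19 for cgr-miR-125a-5p and 0.23 ± 0.23 for mmu-let-7e-5p (SE; edgeR adjusted p = 0.191, 0.111 and 0.744). So none of the 3 passed in the cells.

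**Figure D4:**
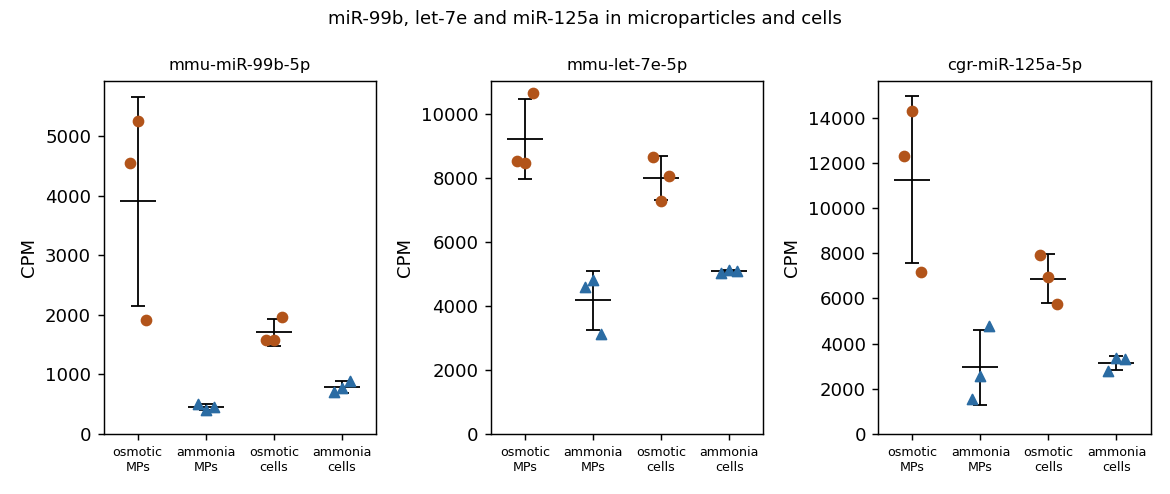
CPM of mmu-miR-99b-5p, mmu-let-7e-5p and cgr-miR-125a-5p in osmotic MPs, ammonia MPs, osmotic cells and ammonia cells. Points are libraries and bars the mean ± SD (n = 3). For each entry the osmotic libraries lie above the ammonia libraries in MPs and in cells, with the widest gap for mmu-miR-99b-5p in MPs.

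The survival-linked miR-21 was also high in osmotic MPs. The entry cgr-miR-21-5p had 20478, 26988 and 7642 CPM in osmotic MPs and 8352, 4872 and 5699 CPM in ammonia MPs, averages of 18369 ± 9844 and 6308 ± 1818 CPM (SD, n = 3 each). Osmotic replicate 3 lay within the ammonia range, and the log2 fold change was 1.76 ± 0.59 (SE; edgeR adjusted p = 0.0944). The cells gave a like picture, with 35663, 46100 and 15927 CPM in osmotic cells and 11093, 12042 and 11866 CPM in ammonia cells, and there the groups did not overlap. In the fit of the 6 cell libraries the log2 fold change of cgr-miR-21-5p was 0.97 ± 0.29 (SE; edgeR adjusted p = 0.111), so it did not pass. The entry cgr-miR-92a-3p, of the growth-linked miR-17-92 cluster, had 80717, 38064 and 55648 CPM in osmotic MPs and 43374, 52262 and 50365 CPM in ammonia MPs (log2 fold change 0.46 ± 0.24, SE; edgeR adjusted p = 0.314). Both entries were detected in all 6 libraries.

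The remaining entries with small p in this direction rest on few libraries. In hsa-miR-6089 the osmotic MP libraries held 3, 12 and 385 counts and the ammonia MP libraries 2, 5 and 0, a log2 fold change of 7.29 ± 2.50 (SE; edgeR adjusted p = 0.0974) that osmotic replicate 3 carries. In hsa-miR-4508 the counts were 2, 2030 and 8 in osmotic MPs and 44, 14 and 13 in ammonia MPs, and the log2 fold change of 6.39 ± 2.796 (SE; edgeR adjusted p = 0.209) became -0.04 without osmotic replicate 2. Both are human-named entries at or near 0 in the cells of both cultures, at most 12 CPM. The entry hsa-miR-3168 did not overlap either, at 132, 209 and 206 CPM in osmotic MPs and 82.6, 88.2 and 57.2 CPM in ammonia MPs. It stood at 4.68 CPM or less in every cell library, and its log2 fold change was 1.53 ± 1.30 (SE; edgeR adjusted p = 0.713). It is the entry found in osmotic MPs alone at 100 CPM.

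The let-7 family as a whole did not separate the cultures. Guide strands of let-7 took 61.5%, 62.6% and 74.0% of osmotic MP counts and 67.3%, 66.0% and 67.9% of ammonia MP counts (66.0% ± 6.91 and 67.1% ± 0.984, SD, n = 3 each; exact permutation p = 1). Of its 14 entries 12 were detected, 9 averaged at least 50 CPM, and all 9 had counts in 3 of 3 libraries of both groups. Of the 9, 6 had a positive and 3 a negative log2 fold change, with a median of 0.09, and none passed the threshold with TMM scaling. With RLE scaling 3 of them passed, cgr-let-7b, cgr-let-7a and mmu-let-7c-5p, and with DESeq2 4 passed, these 3 and mmu-let-7e-5p, each as higher in osmotic MPs. Of all 106 entries tested, 16% passed with RLE scaling and 28.3% with DESeq2. The median over all 106 entries was near 0 with TMM scaling (0.000433) and 0.53 with RLE scaling and with DESeq2.

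Within the family the shares of 6 entries did not overlap between the groups, though none passed the test after adjustment. The most abundant entry, cgr-let-7b, had 185675, 191574 and 279592 CPM in osmotic MPs and 136460, 189548 and 176518 CPM in ammonia MPs (log2 fold change 0.65 ± 0.21, SE; edgeR adjusted p = 0.0919). As a share of let-7 guide counts it held 30.2%, 30.6% and 37.8% in osmotic MPs and 20.3%, 28.7% and 25.99% in ammonia MPs, with no overlap. The share of mmu-let-7e-5p was 1.39% ± 0.0441 and 0.622% ± 0.145 in osmotic and ammonia MPs. Shares of cgr-miR-98, mmu-let-7c-5p, cgr-let-7a and cgr-let-7d-5p were lower in osmotic MPs without overlap. As a ratio the gap was widest for cgr-miR-98, at 0.159% ± 0.0516 in osmotic MPs and 0.815% ± 0.402 in ammonia MPs (SD, n = 3 each). For each of these 6 entries the exact permutation test gave p = 0.1, the smallest possible, and 0.2 after adjustment over the 12 let-7 entries detected. These shares are parts of the same total, so the higher share of cgr-let-7b by itself lowers those of the others, and the 6 are not separate results. In CPM, 1 of the 9 let-7 entries tested was higher and 4 were lower without overlap. For all 106 entries tested it was 4.72% and 24.5%. Members of this family differ by few bases, so their counts can be split between entries and single members are uncertain.

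Part of this make-up was found in the cells and part was not. The let-7e share was higher in osmotic cells too (1.46% ± 0.154 in osmotic cells, 0.771% ± 0.0579 in ammonia cells). The let-7b share was 16.1% ± 3.23 in osmotic cells and 15.2% ± 1.95 in ammonia cells, with overlapping libraries (exact permutation p = 0.7). For cgr-miR-98 it was 0.429% ± 0.0635 in osmotic cells and 0.463% ± 0.144 in ammonia cells (exact permutation p = 0.8). The share of mmu-let-7c-5p ran the other way in cells, at 30.5% ± 1.46 in osmotic and 25.2% ± 0.861 in ammonia cells, against 26.1% ± 1.69 in osmotic and 28.4% ± 0.863 in ammonia MPs (SD, n = 3 each).

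**Figure D5:**
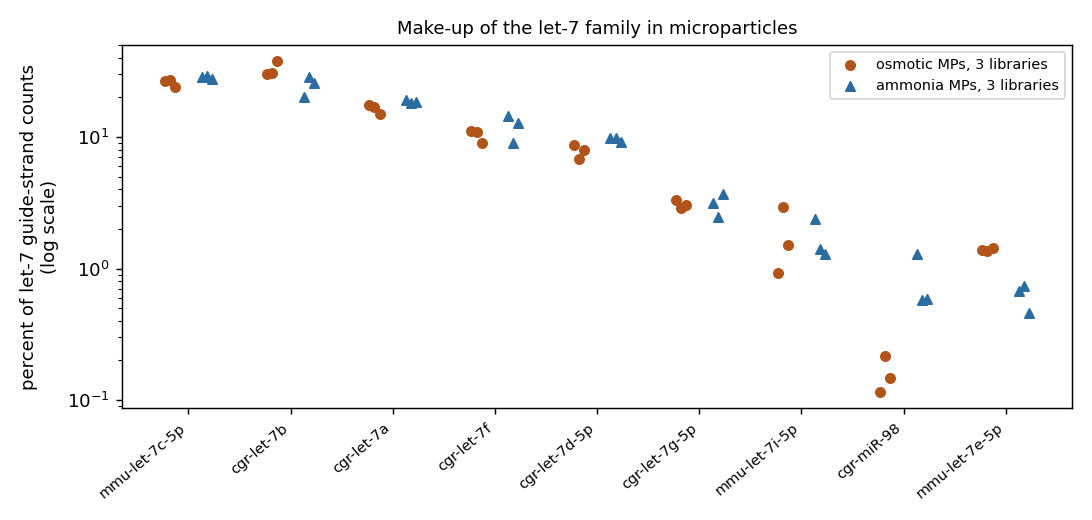
Percent of let-7 guide-strand counts (vertical, log scale) held by the 9 abundant let-7 entries (horizontal) in osmotic and ammonia MPs. Points are libraries, 3 per group. Circles lie above triangles for cgr-let-7b and mmu-let-7e-5p and below them for cgr-miR-98, while cgr-let-7f, cgr-let-7g-5p and mmu-let-7i-5p overlap.

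Of the other abundant entries, some overlapped between the groups and some did not. All of the 15 most abundant entries were detected in all 6 libraries. The entry mmu-let-7c-5p had 164272, 171022 and 178511 CPM in osmotic MPs and 192680, 192674 and 186743 CPM in ammonia MPs. For cgr-let-7a the values were 107390, 106018 and 110485 CPM in osmotic MPs and 129737, 119126 and 125140 CPM in ammonia MPs. Both were lower in osmotic MPs in CPM without overlap, yet their log2 fold changes were 0.09 ± 0.12 and 0.03 ± 0.14 (SE) with TMM scaling and below 0 by library size alone. With RLE scaling, itself a shift of +0.53 in the median of all entries, they were 0.57 for mmu-let-7c-5p and 0.52 for cgr-let-7a, and both passed as higher (edgeR adjusted p = 0.0491 each). DESeq2 called both higher too (adjusted p = 0.00116 and 0.00221). The direction of these entries therefore turns with the scaling. For cgr-let-7d-5p, 53563, 42884 and 58941 CPM in osmotic MPs stood against 66213, 65167 and 62333 CPM in ammonia MPs, with a log2 fold change of -0.08 ± 0.20 (SE) that turned positive with RLE scaling.

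Other let-7 guides and a passenger strand overlapped between the groups. For cgr-let-7f, 68745, 68360 and 67047 CPM in osmotic MPs stood beside 97864, 59325 and 87444 CPM in ammonia MPs. For cgr-let-7g-5p it was 20341, 18190 and 22355 CPM in osmotic MPs and 21314, 16240 and 25133 CPM in ammonia MPs. For mmu-let-7i-5p it was 5732, 18375 and 11205 CPM in osmotic MPs and 15958, 9287 and 8787 CPM in ammonia MPs. The osmotic libraries of let-7f agreed to within a few percent, while those of let-7i ranged widely. The passenger strand cgr-let-7d-3p had 18026, 14390 and 16615 CPM in osmotic MPs and 12870, 16278 and 11393 CPM in ammonia MPs.

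Outside let-7, cgr-miR-320a, which is made without the Drosha enzyme, was lower in osmotic MPs in each library. It had 34036, 27066 and 15750 CPM in osmotic MPs and 39343, 45894 and 50878 CPM in ammonia MPs, a log2 fold change of -0.61 ± 0.30 (SE; edgeR adjusted p = 0.270). In cells it had 31214, 25439 and 26695 CPM under osmotic stress and 21830, 21118 and 31092 CPM under ammonia, with overlap. Its relative hsa-miR-320b was low in osmotic MPs too, with 1, 3 and 5 counts, but 3240, 27 and 30 counts in ammonia MPs put nearly all of the group's counts in 1 library. The p53-linked hairpin of miR-34b gave cgr-miR-34b-3p, which had 7318, 15022 and 14347 CPM in osmotic MPs and 11280, 14089 and 6951 CPM in ammonia MPs. The other arm, cgr-miR-34b-5p, had 0, 0 and 2405 counts in osmotic MPs and 0 in each ammonia MP library. A single osmotic library therefore held all of its counts.

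A like split between neighbours appeared for miR-191 and miR-425, which neighbour each other in the hamster annotation. The abundant cgr-miR-191-5p had 5748, 15501 and 21223 CPM in osmotic MPs and 9992, 12132 and 16081 CPM in ammonia MPs. Its neighbour cgr-miR-425-5p, named after its values were seen, had 0, 3895 and 0 counts in osmotic MPs and 4, 1 and 4 counts in ammonia MPs. In the cells cgr-miR-425-5p was steady, at 574, 651 and 452 CPM in osmotic cells and 445, 701 and 337 CPM in ammonia cells. The single high MP library exceeded all 6 cell libraries.

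Grouped by family, 3 families were lower in osmotic MPs without overlap between the groups. The miR-29 family took 0.0621%, 0.000634% and 0.000925% of counts in osmotic MPs, against 0.380%, 0.250% and 0.464% in ammonia MPs. Both entries tested had negative log2 fold changes, and both are names of the same miRNA, miR-29a-3p. The pair miR-221 and miR-222 took 0.189% ± 0.176 in osmotic MPs and 0.765% ± 0.290 in ammonia MPs. All 3 entries tested were negative, cgr-miR-221-3p and the hamster and mouse names of miR-222-3p. The family of miR-103 and miR-107 took 0.000414% ± 0.000182 in osmotic MPs and 0.0931% ± 0.0771 in ammonia MPs (SD, n = 3 each). Entries that are often matched by fragments of other RNAs took more of osmotic MPs, 0.362% ± 0.102 against 0.164% ± 0.0663 in ammonia MPs. Each of these 4 differences had p = 0.1 in the exact permutation test, the smallest possible, and 0.475 after Benjamini-Hochberg adjustment over the 19 lists compared. No member of any list passed the edgeR test with TMM scaling. With RLE scaling 10 list members passed, with the robust estimate 4, with DESeq2 20 and in the fit of 18 libraries 24. Over all entries tested, the shares called in these settings were 16%, 10.4%, 28.3% and 19.3%, so these counts of members do not by themselves set the lists apart.

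For most other families, the osmotic MP libraries spread around the ammonia values. The related miR-99, miR-10, miR-125 and miR-100 families took 4.47%, 2.69% and 1.87% of osmotic MP counts and 2.13%, 1.84% and 2.03% of ammonia MP counts (exact permutation p = 0.3). Of their 10 entries tested 6 were positive. The entries cgr-miR-125a-5p and mmu-miR-99b-5p were above without overlap. The entry cgr-miR-99a-5p was below without overlap, though miR-99a-5p summed over its names overlapped. The miR-23/27/24 clusters took 3.46%, 2.99% and 0.597% in osmotic MPs and 2.56%, 2.57% and 2.50% in ammonia MPs (exact permutation p = 1). The miR-17-92 cluster with its paralogs took 7.51% ± 3.36 in osmotic MPs and 6.70% ± 0.330 in ammonia MPs (exact permutation p = 0.8). Its member cgr-miR-93-5p had 1000, 5 and 2107 counts in osmotic MPs and 10148, 11213 and 13910 in ammonia MPs (log2 fold change -1.40 ± 1.63, SE; edgeR adjusted p = 0.842). It was lower without overlap in CPM, with osmotic replicate 2 near 0.

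Smaller families gave overlapping shares. The miR-15/16 family took 0.834% ± 0.533 in osmotic and 0.384% ± 0.169 in ammonia MPs (SD, n = 3 each; exact permutation p = 0.2). The miR-30 family took 0.926% ± 0.369 in osmotic and 0.687% ± 0.130 in ammonia MPs (exact permutation p = 0.4). For the miR-26 family it was 1.04% ± 0.448 in osmotic and 0.951% ± 0.0190 in ammonia MPs (exact permutation p = 0.9), and for the miR-181 family 0.436% ± 0.387 in osmotic and 0.663% ± 0.112 in ammonia MPs (exact permutation p = 0.4). Passenger strands of let-7 took 1.76% ± 0.361 in osmotic and 1.36% ± 0.236 in ammonia MPs (exact permutation p = 0.2). The family of miR-148 and miR-152 was represented by cgr-miR-148b-3p alone, with 1 of 3 osmotic and 2 of 3 ammonia MP libraries holding a count. In these families the osmotic MPs had the wider spread each time except for miR-148.

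Lists of miRNAs by known role were no more separated. The stress-linked list, led by cgr-miR-21-5p, took 2.39%, 3.62% and 0.765% of osmotic MP counts and 1.14%, 0.916% and 0.934% of ammonia MP counts (exact permutation p = 0.4). Of its 3 entries tested 2 were positive. MiRNAs used to engineer CHO cells took 2.65% ± 1.87 in osmotic and 1.25% ± 0.276 in ammonia MPs (exact permutation p = 0.4), 3 tested entries positive and 3 negative. The vesicle-linked list took 4.54% ± 1.86 in osmotic and 6.37% ± 0.821 in ammonia MPs (exact permutation p = 0.2), with 4 of 6 tested entries negative. The p53-linked list, which holds guide arms such as miR-34b-5p and not the abundant cgr-miR-34b-3p, took 0.119% ± 0.124 in osmotic and 0.000125% ± 0.000138 in ammonia MPs (exact permutation p = 0.3), and 0 of its entries had enough counts for a test. Of 24 entries that mark liver, neurons, blood or muscle, 1 was detected, cgr-miR-486-5p of red blood cells, and the others had no count. It stood at 1702, 0.906 and 880 CPM in osmotic MPs and 635, 2339 and 3114 CPM in ammonia MPs. It was also present in the cells of both cultures, at 717 to 3055 CPM.

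The authors' deposited table of this contrast has an FDR for 319 of the entries detected here and calls 102 of them at an FDR under 0.05 (32%), 26 higher (8.15%) and 76 lower (23.8%) in osmotic MPs. Of the 26 called higher in the authors' deposited table, 20 reached 50 CPM in a single osmotic MP library, 4 in none, 1 in 2 libraries and 1 in all 3. Of the 76 called lower in the authors' deposited table, 45 reached 50 CPM in a single ammonia MP library, 18 in 2 and 13 in all 3. In all, 24 of the 102 did not overlap between the groups. An example, named after its values were seen, is mmu-miR-149-5p with an authors' log2 fold change of 10.55 in that deposited table, for which the osmotic MP libraries held 0, 4796 and 1 counts and the ammonia MP libraries 1, 1 and 4. Of the 102 calls, 23 were also tested here. All 23 had the same sign as in the authors' deposited table, and 22 had an unadjusted p under 0.05 in edgeR. Of all 106 entries tested here, 25 (23.6%) had such a p. Both comparisons use the counts of the same MP libraries, so this likeness is no separate support for the calls.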

How the data were processed

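Raw counts per mature miRNA entry were used as deposited by the authors. Per the file headers, reads of the stressed libraries were trimmed, limited in length and grouped on the mature sequence. FastQC 0.10.1 and cutadapt 2.8 are named in the submitters' processing notes, and the counter was not given in the sources used here. A deposited normalised signal (count over an effective library size) served only for 1 alternative scaling. The authors' deposited comparison gave log2 fold changes and FDR p-values, which are quoted as such. From that second table, 54 columns of values per sample were not used.

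Counts were tested with edgeR 4.0.16 in R 4.3.3 (quasi-likelihood F test, TMM scaling, filterByExpr with a minimum count of 10), osmotic minus ammonia, on the 6 MP libraries, with Benjamini-Hochberg adjustment over all entries tested and a threshold of 0.05. The SE was derived from the F statistic. The comparison of MPs with cells was an interaction in 12 libraries. Shares and numbers of entries were compared with two-sided exact permutation tests (SciPy 1.17.1). Alternatives were RLE scaling, library size alone, the authors' sizes, no filter, DESeq2 1.42.0, all 18 stressed libraries, a replicate block, each library left out, and counts summed over species names. The scripts' test was checked on simulated counts.

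Named entries are, of those averaging at least 50 CPM in either group, the 8 in each direction with the smallest unadjusted p, the 15 most abundant, and those at 0 in 3 libraries of a group while the other group has 3 libraries with counts. Other entries named are family members, members of the 13 that separate the groups, or stated as chosen after their values were seen. Members, lists and tests were chosen with earlier results of these data known. Neighbouring genes were read from RefSeq's annotation of assembly CriGri-PICRH-1.0. Floors cover counting error alone, as reads lacking molecular identifiers are not independent.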

Additional observations from a re-analysis of the deposited data

Results flagged for a closer look

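The culture difference in MPs (osmotic minus ammonia, log2) differed from that in cells for 9 of the entries named by rule, by the interaction test at an adjusted p under 0.05 in edgeR. The differences between the log2 fold changes were -7.94 for mmu-miR-29a-3p, -9.02 for cgr-miR-27a-3p, -9.06 for mmu-miR-6412, -8.34 for hsa-miR-139-5p, -10.26 for cgr-miR-28-3p, -10.16 for cgr-miR-151-3p, -8.57 for cgr-miR-199a-3p and -10.44 for cgr-miR-7a. For rno-miR-222-3p the fitted value was -16.37. That entry had 0 counts in all osmotic MP libraries, so this size depends on the prior count and is no bound. In the cells rno-miR-222-3p was higher under osmotic stress, at 339, 400 and 218 CPM against 38.5, 42.8 and 79.8 CPM under ammonia. That cell difference is part of the fitted value. In each of the 9 the osmotic MP libraries were at or near 0 while the cells of both cultures held the entry. With any 1 of the 3 ammonia cell libraries left out, 0 entries passed this test.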

How the results depend on the processing

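The count of 0 entries passing became 17 with RLE scaling, 30 with DESeq2, 64 in the fit of 18 libraries and 11 with the robust estimate, and was 0 in the other settings, including each library left out (23 to 35 entries at an unadjusted p under 0.05). Replicate numbers did not pair the libraries (correlations 0.0568, -0.00517 and -0.0442). With the replicate block 0 entries passed (17 at an unadjusted p under 0.05), and 0 in the interaction, which gave 27 with no filter, 53 with DESeq2 and 0 to 34 with a library left out. The entries present in ammonia MPs alone numbered 16 to 21 with a library left out (21 without ammonia MPs replicate 2), and those in osmotic MPs alone 0 to 1, or 1 at 100 CPM. Thinning moved the difference in detected entries from -63.3 to -29.3. With hamster names alone the miR-29 difference was -0.174 points and that of fragment-like entries 0. Among the named entries, 371 values over all settings kept their direction and side of the threshold, 50 kept their direction and passed it, and 32 turned direction. Directions turned for hsa-miR-4508 and for abundant entries near 0. For mmu-let-7c-5p log2 fold changes were -0.16 by library size alone, -0.00019 with the authors' sizes, -0.13 with no filter and -0.085 to 0.25 with a library left out. For cgr-let-7a they were -0.21, -0.060, -0.19 and -0.13 to 0.21 in the same settings, -0.0037 in the fit of 18 libraries and -0.013 among entries of 1000 CPM or more. For cgr-let-7g-5p they were -0.042 by library size alone, -0.024 with no filter and -0.026 to 0.46 with a library left out. With RLE scaling and with DESeq2 they were 0.46 for cgr-let-7f, 0.41 for cgr-let-7d-5p and 0.23 for cgr-miR-23a-3p, and with a library left out -0.16 to 0.27, -0.32 to 0.097 and -1.10 to 0.036. For cgr-let-7f they were also 0.0055 with the replicate block and 0.010 with summed names. Left-out libraries gave -0.041 to 6.87 for hsa-miR-4508, -0.14 to 0.93 for cgr-miR-423-5p, -0.16 to 0.82 for cgr-miR-191-5p and -0.0078 to 0.84 for mmu-let-7i-5p. The cause was not tested. The MP libraries held at most 2967003 counts and spread widely within groups, and whether either limited the calls was not tested.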

Other observations

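A few entries outside the naming rule, chosen after their values were seen, also differed in single libraries or between species names. The entry cgr-miR-30c-2 had 807, 5 and 3221 counts in osmotic MPs and 25180, 8071 and 9087 in ammonia MPs, so it was near 0 in osmotic replicate 2, where cgr-miR-93-5p was also near 0. The miR-146b-5p of innate immune signalling was divided by name. The rat-named rno-miR-146b-5p had 3, 2285 and 7 counts in osmotic MPs and 8156, 5897 and 6659 in ammonia MPs, while cgr-miR-146b-5p had 3401, 7122 and 0 CPM in osmotic MPs and 3.37, 4.59 and 1045 CPM in ammonia MPs. Summed over names, miR-146b-5p stood at 3412, 9198 and 7.19 CPM in osmotic MPs and 2754, 3013 and 3639 CPM in ammonia MPs, and the groups overlapped. The mouse-named mmu-miR-709 had 1, 2 and 8 counts in osmotic MPs and 362, 657 and 74 in ammonia MPs (log2 fold change -4.92 ± 1.61, SE; edgeR adjusted p = 0.0919).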
